A study of Homo sapiens with 2 samples.

Results

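The 5p arms of the miR-6715 to miR-6895 entries were examined in exosomal RNA of U87MG delta EGFR glioblastoma cells. These are the miRNAs cut from the 5′ side of short hairpins, most of which are known as mirtrons. Members were taken by name: probes for a single miRNA numbered from miR-6715 to miR-6895 that end in -5p, with miR-6724-5p left out. The rule gave 174 probes of 2632 on the array, and no measured value entered it. For 171 of them the array also held a probe for the 3p arm of the same hairpin.

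The BNCT group was 1 sample of cells exposed to 25 ppm of a p-boronophenylalanine-fructose complex for 2 hours and irradiated with thermal neutrons, with medium collected on day 3 after irradiation. In boron neutron capture therapy (BNCT) the captured neutrons split boron inside the loaded cells. The control group was 1 sample labelled as non-treated. The treatment text of the labels stands on both samples and was read as that of the BNCT sample, so compound, irradiation, handling and time of collection cannot be told apart. Both groups shared the U87MG delta EGFR line, a derivative of a human glioblastoma line that is called after a shortened EGF receptor, and medium with exosome-depleted serum. Each group had 1 Toray 3D-Gene array with 1 colour (Cy5) and 1 spot per miRNA. With 1 array per group there is no replicate and no test, and every difference below is a description of 2 arrays.

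A canonical miRNA hairpin is cut out of its transcript by Drosha and then by Dicer, which leaves a 5p and a 3p arm. A mirtron skips the Drosha step: splicing releases a short intron that folds into the hairpin itself. The 5p arm then lies beside the start of the intron, and the 3p arm ends at or near the AG with which introns end, behind a tract rich in pyrimidines. The arm that is loaded into Argonaute recognises targets mainly through its seed, bases 2 to 8.

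The end of the hairpin had this mark in most entries, and the hairpin as listed seldom began with the GU with which introns begin. Mature sequences were found in the RefSeq table (GRCh38.p14) for 149 of the 174 members and hairpins for 141. Of these hairpins 129 (91.5%) ended in AG, against 9.05% of 1415 other hairpins of the table. GU was found at the start of 16 of the 141 hairpins, and 8.05% of the 149 mature members started with it, against 5.15% of other 5p arms. The 12 hairpins that did not end in AG were those of miR-6715b, miR-6716, miR-6717, miR-6718, miR-6721, miR-6722, miR-6790, miR-6792, miR-6840, miR-6852, miR-6858 and miR-6869, for which the name mirtron was not borne out by the AG end. Of these the hairpins of miR-6790, miR-6792, miR-6858 and miR-6869 did start with GU. Among 3p arms of the range 116 of 155 (74.8%) ended in AG, against 10.7% of other 3p arms on the array. A hairpin lay inside a protein-coding gene on the same strand for 126 of the 149 members (84.6%), against 50.5% of other 5p arms. These host counts leave out genes whose strand the tables do not give, and the tables do not say whether a hairpin is intronic or exonic.

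The 5p arms were rich in guanine. Guanine made up a median of 50% of their bases (25.0 to 68.2%), against 15% in the 3p arms of the range and 27.3% in the other 5p arms of the array. The 5 members below are the brightest on the BNCT array and are shown because of their guanine runs, with the seed in capitals. The last 2 members, miR-6733-5p and miR-6739-5p, share a seed and were under the detection limit on both arrays.
miR-6743-5p (chr11:209341-209362, plus strand): aAGGGGCAgggacggguggccc
miR-6787-5p (chr17:82236673-82236694, plus strand): uGGCGGGGguagagcuggcugc
miR-6785-5p (chr17:75498553-75498574, plus strand): uGGGAGGGcguggaugauggug
miR-6717-5p (chr14:21023355-21023376, minus strand): aGGCGAUGuggggauguagaga
miR-6794-5p (chr19:12852265-12852284, plus strand): cAGGGGGAcugggggugagc
miR-6733-5p (chr1:43171686-43171707, minus strand): uGGGAAAGacaaacucagaguu
miR-6739-5p (chr1:201863378-201863399, plus strand): uGGGAAAGagaaagaacaagua

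The hairpin of the brightest member shows how the arms lie. In MIR6743 (chr11:209336-209406, plus strand) the capitals mark the 5p arm and then the 3p arm, and the last 2 bases are the AG.
MIR6743: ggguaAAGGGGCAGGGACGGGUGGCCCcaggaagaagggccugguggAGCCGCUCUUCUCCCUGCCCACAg
The guanine-rich stretch lies on the 5p side and the pyrimidine-rich stretch on the 3p side. Runs of guanine were common in the set: GGGG was found in 70 of 149 members (47.0%), against 11.1% of other 5p arms and 11.9% of all single-name probes with a sequence. GGGA was found in 64 members (43.0%), against 14.4% of other 5p arms and 14.4% of all such probes, and 33 members held both motifs, which may overlap. Mature miRNAs were searched as single strands. Guanine stood at position 3 of 66.4% of members, at position 4 of 65.8% and at position 5 of 68.5%, against 30.3%, 36.2% and 36.0% of other 5p arms. A seed with GGG occurred in 64.4% of members and in 15.4% of other 5p arms.

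Most of the 5p arms gave a signal on both arrays. A spot was called detected where its median was more than 2 SD above the mean of the blank spots on the same array, with the top and bottom 5% of blanks trimmed. Of the 312 blank spots themselves 16 on the BNCT array and 17 on the control array lay above this limit, at up to 274.9 and 287.9 units. On the BNCT array 148 of 174 members were detected (85.1%, 95% Wilson interval 79.0 to 89.6), and on the control array 131 (75.3%, 68.4 to 81.1). Over all 2632 probes 36.2% were detected on the BNCT array and 28.6% on the control array. Both arrays detected 129 members (74.1%), against 23.9% of all probes, and 24 members were detected on neither. The intervals cover the counting of probes only.

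The members read between 233.8 and 1877.1 scanner units on the BNCT array, with a median of 341.4, and between 238.0 and 1183.7 on the control array, with a median of 302.5. Blank spots averaged 254.9 units on the BNCT array and 258.1 on the control array, with limits of 267.5 and 272.0. The median member therefore lay 86.5 units over the blanks on the BNCT array and 44.3 on the control array, against 6.1 and 4.4 units for the median of all probes. Members made up 6.61% of the probes and 34.0% of the 100 brightest on each array. They held 16 of the 50 brightest places on the BNCT array and 15 on the control array.

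**Figure D1:**
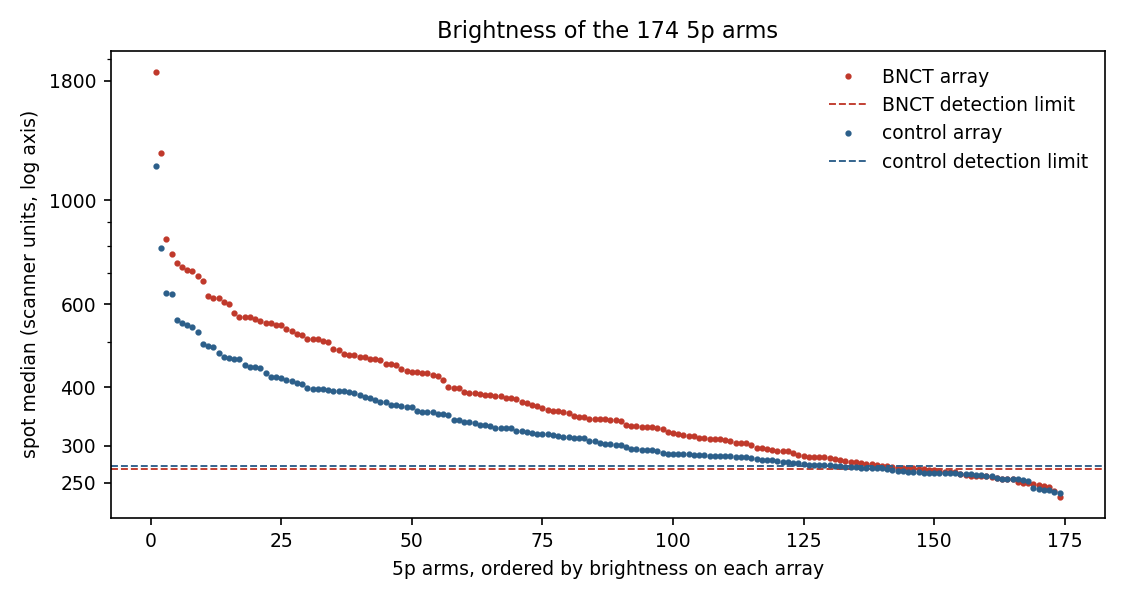
Spot medians (scanner units, log axis) of the 174 5p arms, ordered from brightest to dimmest separately on the BNCT array and the control array, with each array's detection limit dashed. The points run from 1877.1 to 233.8 units on the BNCT array and from 1183.7 to 238.0 units on the control array.

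How many members counted as detected depended on the limit. With limits at the blank mean + 5 SD the detected share was 71.3% of members on the BNCT array and 55.2% (96 members) on the control array, against 19.9% and 13.5% of all probes. The array also has 112 spots that carry no probe, which were brighter than the blanks, with means of 289.0 units on the BNCT array and 301.3 on the control array, and 110 and 112 of them lay above the blank-based limit. With a limit set 2 SD above the mean of these spots, 104 members remained detected on the BNCT array and 70 on the control array (59.8% and 40.2%, against 14.7% and 8.55% of all probes).

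The brightest member was miR-6743-5p, which was also the brightest of all miRNA probes on both arrays. It read 1877.1 ± 130.0 units on the BNCT array and 1183.7 ± 44.1 on the control array, where the error is that of 1 spot, combined from the blank spots and the spike control spots. miR-6787-5p came next, at 1260.2 ± 80.9 units on the BNCT array and 792.5 ± 26.1 on the control array. These 2 stood apart from the rest of the set by more than their spot errors. The hairpin of miR-6787 lies in SLC16A3, a lactate exporter, and that of miR-6743 overlaps RIC8A, for which the tables give no strand.

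Below these the members followed closely on each other. miR-6785-5p, in TMEM94, read 829.0 ± 46.5 units on the BNCT array and 632.0 ± 18.9 on the control array. miR-6717-5p, in NDRG2, read 767.0 ± 41.6 units on the BNCT array and 634.5 ± 19.0 on the control array. The order of these 2 differed between the arrays and their gap was within the combined spot error on both arrays. miR-6794-5p read 736.4 units on the BNCT array and 546.9 on the control array. miR-6803-5p, in PPP6R1, a regulatory subunit of protein phosphatase 6, read 720.1 units on the BNCT array and 556.3 on the control array. miR-6786-5p, in HGS, an endosomal sorting protein, read 708.1 units on the BNCT array and 536.8 on the control array. These 3 lay within 30 units of each other on each array. The other 3 of the 10 brightest on the BNCT array were miR-6729-5p, in MIIP, miR-6756-5p and miR-6752-5p, between 674.4 and 711.2 units there and between 463.0 and 541.6 on the control array.

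Of the 10 brightest members on each array 9 were the same, with miR-6729-5p only on the BNCT list and miR-6879-5p (620.9 units on the BNCT array, 495.3 on the control array) only on the control list. Across all 174 members the rank correlation between the arrays was 0.973 (Spearman), a description over probes that share both arrays and their base composition.

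Where several members lie in 1 host gene their brightness could differ widely. PPP6R1 holds 3, of which miR-6803-5p and miR-6802-5p were bright (720.1 and 606.9 units on the BNCT array, 556.3 and 473.1 on the control array) and miR-6804-5p was dim (307.8 and 287.6 units). ATG2A, an autophagy lipid transfer protein, holds miR-6749-5p (480.2 units on the BNCT array, 391.1 on the control array) and miR-6750-5p (386.1 and 327.9). KDM5C, an X-linked histone demethylase, holds miR-6894-5p (355.7 and 300.7) and miR-6895-5p (341.0 and 301.8). GTF2F1, a subunit of the general factor TFIIF, holds miR-6885-5p (467.3 and 327.3) and miR-6790-5p, which was near the limit (271.8 and 271.9).

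In most hairpins the 5p spot was brighter than the 3p spot. It was the brighter of the pair in 154 of 171 hairpins on the BNCT array (90.1%) and in 146 on the control array (85.4%), and in 140 on both. In 662 hairpins outside the range it was the brighter in 52.7% on the BNCT array and in 50.9% on the control array. The 5p spots of the range had a median of 341.0 units and the 3p spots one of 262.8 on the BNCT array, and 301.9 and 264.2 units on the control array. The arms lay on adjacent spots in 147 of the 171 hairpins. The brightness of 2 probes depends on how each probe binds as well as on the amount of RNA, so these counts are no ratios of molecules.

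At the limit of 2 SD the 3p arms themselves were detected about as often as the array as a whole, and at stricter limits far less often. Of 174 3p arms in the range 57 were detected on the BNCT array (32.8%) and 46 on the control array (26.4%), against 36.2% and 28.6% of all probes. With limits at 5 SD 5 remained on the BNCT array and 4 on the control array (2.87% and 2.3%, against 19.9% and 13.5% of all probes). With the limit from spots without a probe 2 remained on each (1.15%, against 14.7% and 8.55%). The 5p arm alone was detected in 92 hairpins on the BNCT array and in 87 on the control array, and the 3p arm alone in 4 on each. Both arms were detected in 53 and 41 hairpins, and the 5p spot was the brighter in 52 and 35 of them. The brightest pair illustrates the gap: miR-6743-3p read 273.6 units on the BNCT array and 270.8 on the control array, and miR-6787-3p read 250.3 and 262.5.

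**Figure D2:**
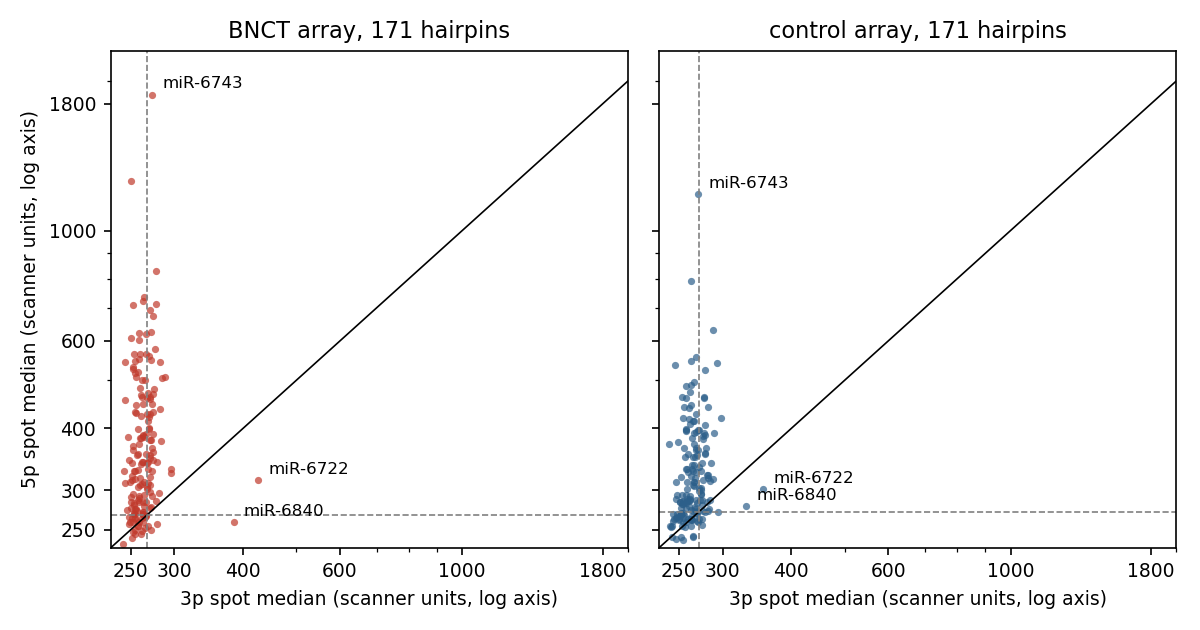
Spot median of the 5p arm against that of the 3p arm (scanner units, log axes) for 171 hairpins, on the BNCT array (left) and the control array (right), with the line of equal brightness and each array's detection limit dashed. The 5p arm is above the line in 154 hairpins on the BNCT array and in 146 on the control array, while miR-6722 and miR-6840 lie clearly below it.

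The exceptions were few and mostly near the limit. miR-6840 and miR-6722 were the hairpins in which the 3p spot was clearly brighter. miR-6840-5p read 259.1 units on the BNCT array and 279.4 on the control array, against 384.4 and 330.6 units for miR-6840-3p. miR-6722-5p read 314.4 units on the BNCT array and 301.9 on the control array, against 425.2 and 355.0 for miR-6722-3p. Both hairpins are among the 12 that do not end in AG. Their arms are shown because here the guanine-rich arm is the 3p one, with seeds in capitals.
miR-6840-5p (chr7:100356656-100356679, plus strand): aCCCCCGGgcaaagaccugcagau
miR-6840-3p (chr7:100356696-100356717, plus strand): gCCCAGGAcuuugugcggggug
miR-6722-5p (chr9:136746941-136746960, minus strand): aGGCGCACccgaccacaugc
miR-6722-3p (chr9:136746903-136746924, minus strand): uGCAGGGGucgggugggccagg
Guanine made up 25.0% of each of these 5p arms, against 45.5% of miR-6840-3p and 59.1% of miR-6722-3p. The other hairpins with a detected and brighter 3p spot that ranked next had small gaps. On the BNCT array these were miR-6832 (256.4 units for 5p, 278.8 for 3p), miR-6884 (250.1 and 272.3) and miR-6853 (254.5 and 268.6). On the control array they were miR-6872 (272.0 and 294.8), miR-6884 (256.1 and 275.7) and miR-6853 (262.8 and 275.0). In these 4 the 5p arm held more guanine, so the brighter arm was not the guanine-richer one.

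Arm brightness followed guanine in the hairpins with wide gaps. Both arms had a sequence in 140 hairpins of the range, and in 136 of them the 5p arm held more guanine. Counting gaps over 26.6 units on the BNCT array and over 29.4 on the control array, which is 3 times the noise of a difference of 2 blank spots, the 5p spot was the brighter in all 99 such hairpins on the BNCT array and in all 74 on the control array. Of the 3 hairpins with more guanine in the 3p arm, miR-6722, miR-6840 and miR-6720, the first 2 had such a gap, with the 3p spot brighter. Among hairpins outside the range with such a gap, the 5p spot was the brighter in 88 of 97 on the BNCT array and in 63 of 73 on the control array where the 5p arm held more guanine. Where the 3p arm held more, the 3p spot was the brighter in 39 of 52 and in 24 of 33. Over all such hairpins outside the range, whatever the gap, the split was weaker. The 5p spot was the brighter in 200 of 316 on the BNCT array (63.3%) and in 171 on the control array (54.1%) where the 5p arm held more guanine, and the 3p spot in 136 of 226 (60.2%) and in 120 (53.1%) where the 3p arm held more. In the range the 5p spot was the brighter in 93.4% of the 136 on the BNCT array and in 86.8% on the control array. The split by guanine was chosen after the values were seen.

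Within the set the brighter 5p arms were those with more guanine. Across 149 members the Spearman correlation of guanine share with brightness was 0.69 on the BNCT array and 0.68 on the control array, and that of adenine share was -0.43 and -0.47. For length it was -0.16 on each array. Among 641 other 5p arms the correlation with guanine was 0.46 on the BNCT array and 0.34 on the control array, and that with uracil was farther from 0, at -0.53 and -0.46. In the 155 3p arms of the range with a sequence the order by guanine was not found: the Spearman correlation with guanine was -0.19 and -0.15 (Pearson 0.29 and 0.13), and that with cytosine 0.48 and 0.49. These are descriptions across probes, which share an array and whose base shares are not independent of each other.

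Of the 109 members with over 40% guanine, 106 were detected on the BNCT array (97.2%) and 97 on the control array (89.0%). Of the 40 members with 40% or less, 22 were detected on the BNCT array (55%) and 18 on the control array (45%). Other 5p arms showed the same order: over 40% guanine 86.2% of 109 were detected on the BNCT array and 73.4% on the control array, and at 40% or less 20.9% and 14.8% of 532. Members with GGGG had a median of 406.3 units on the BNCT array and 338.9 on the control array, and members without it 304.6 and 281.2. Other 5p arms with GGGG had medians of 344.5 and 312.7 units, and those without it 257.6 and 259.3. The part of probe binding and of RNA amount in this order was not tested.

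**Figure D3:**
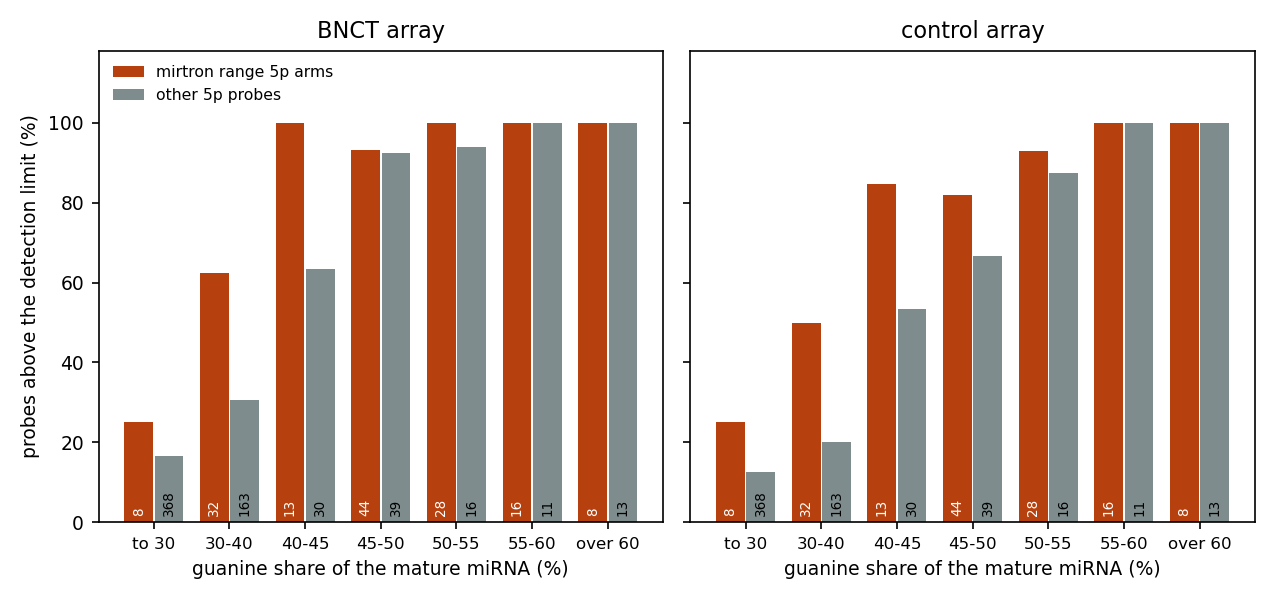
Share of probes above the detection limit (bars from 0, percent) by the guanine share of the mature miRNA, for the miR-6715 to miR-6895 5p arms and the other 5p probes, on the BNCT array (left) and the control array (right), with the number of probes at the foot of each bar. Detection is lowest at 30% guanine or less and stands at 100% above 55% guanine in both sets on both arrays, with a dip among members at 45 to 50% guanine (93.2% on the BNCT array, 81.8% on the control array).

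The 24 members detected on neither array read 233.8 to 266.3 units on the BNCT array and 238.0 to 268.6 on the control array. A sequence was found for 19 of these 24 and for 113 of the 129 detected on both. The median guanine share of the 19 was 34.8% and their median adenine share 31.8%, against 50% and 18.2% for the 113. The guanine-richest of the 19, named after its values were seen, was miR-6740-5p at 50% guanine (247.7 units on the BNCT array, 241.8 on the control array). miR-6733-5p (258.9 and 241.4 units) and miR-6739-5p (249.9 and 238.0), which carry the same seed, were among the 24.

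The AG end was also set beside detection. Of the 129 hairpins with it 86.8% of 5p arms were detected on the BNCT array and 76.7% on the control array, and of the 12 without it 10 were detected on each (83.3%). The earlier described mirtrons (miR-877 and entries between miR-1224 and miR-1238) were also detected more often by the 5p than by the 3p probe: all 11 of their 5p probes were detected on the BNCT array and 10 on the control array, and of 12 3p probes 8 (66.7%, against 32.8% in the range) and 4 (33.3%, against 26.4%).

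Seeds were rarely shared. The 149 sequences had 139 different seeds, and 19 members fell into 9 groups with a seed in common, 8 of 2 members and 1 of 3. The group of 3 and the pairs with the longest guanine runs are shown, since miRNAs with 1 seed would be predicted to share targets, with seeds in capitals.
miR-6819-5p (chr22:36286881-36286902, minus strand): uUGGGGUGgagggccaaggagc
miR-6737-5p (chr1:153962395-153962415, minus strand): uUGGGGUGgucggcccuggag
miR-6812-5p (chr20:45425515-45425539, plus strand): aUGGGGUGagauggggaggagcagc
miR-6803-5p (chr19:55245224-55245245, minus strand): cUGGGGGUggggggcugggcgu
miR-6751-5p (chr11:65129951-65129973, minus strand): uUGGGGGUgagguuggugucugg
miR-6887-5p (chr19:35122705-35122727, plus strand): uGGGGGGAcagauggagaggaca
miR-6795-5p (chr19:15179322-15179345, minus strand): uGGGGGGAcaggaugagaggcugu
In the group of 3, miR-6819-5p, in MYH9, a non-muscle myosin, read 552.7 units on the BNCT array and 413.1 on the control array. miR-6737-5p, in SLC39A1, a zinc importer, read 431.4 and 354.4 units, and miR-6812-5p, in PIGT, read 428.0 and 380.1. All 3 were well above the limit on both arrays.

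Pairs with 1 seed were often unequal in brightness. miR-6803-5p read 720.1 units on the BNCT array and 556.3 on the control array, while miR-6751-5p, with the same seed, read 309.9 and 275.7. miR-6887-5p, in FXYD3, read 576.5 and 445.4 units, against 358.2 and 322.9 for miR-6795-5p, in the receptor gene NOTCH3. miR-6822-5p read 564.0 units on the BNCT array and 459.8 on the control array, and miR-6750-5p 386.1 and 327.9. miR-6777-5p, in SREBF1, a regulator of sterol synthesis, read 470.4 and 391.6, and miR-6889-5p, in RANGAP1, 342.2 and 313.2. The dimmer pairs with 1 seed were miR-6779-5p with miR-6780a-5p (427.8 and 291.9 units on the BNCT array, 332.0 and 272.6 on the control array), miR-6865-5p with miR-6815-5p (398.0 and 286.6, against 318.4 and 269.4) and miR-6758-5p with miR-6856-5p (284.0 and 277.0, against 270.9 and 276.8).

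Between the arrays the median difference of the set was near 0 once the levels were quantile-normalized. Levels were background-corrected on the blank spots with an offset of 50, put on the log2 scale and quantile-normalized over all probes. The median difference of the 129 members detected on both arrays was 0.00 (BNCT minus control, log2), with an SD of 0.19, against -0.02 and 0.22 over all 630 probes detected on both. Quantile normalization makes the level distributions of the arrays equal, so a shift common to all probes cannot show. Members made up 34.0% of the 100 brightest probes on each array, so a shift of the set itself can show only in part. Of the 129 members 64 were higher in BNCT and 64 lower (45.9% of all 630 were higher), and miR-6743-5p, first on both arrays, was at 0 by construction. The spot error carried to the log2 scale had a median of 0.13 for members, and 54 of 129 differences (41.9%) exceeded their own spot error, against 41.6% of all probes. Beyond 3 spot errors lay 2 members (1.55%), against 4.44% of all probes.

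Before normalization nearly all members were brighter on the BNCT array. The raw spot median was higher there in 125 of 129 members (96.9%), against 83.8% of all 630 probes. The brightness over the blanks was higher on the BNCT array by a median factor of 1.72 (quartiles 1.53 and 2.01), against 1.64 over all 630 probes. For the 152 other 5p probes detected on both arrays this factor was 1.73. Without normalization the median difference of members was 0.54, against 0.45 over all probes. With scaling to the spike control spots it was 0.73, against 0.61. In the authors' values, where each array is scaled to the same median of its listed values, it was 0.47, against 0.41.

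A difference of 0.5 or more on the log2 scale was reached by 1 member upward and 1 downward, against 1.9% of all 630 probes upward and 1.75% downward. No member and no other probe reached 2-fold (0% of 630 in either direction). The member highest in BNCT was miR-6885-5p, at 467.3 units on the BNCT array and 327.3 on the control array, a difference of 0.58 (spot error 0.14). It kept its direction under all 9 other settings, from 0.27 without background correction to 1.33 with spike scaling. With spike scaling the median over all probes was itself 0.61. Next among members was miR-6834-5p, in PFDN6, a prefoldin subunit, at 353.7 units on the BNCT array and 287.0 on the control array (0.47, spot error 0.16). Then came miR-6754-5p (331.5 and 281.2 units, 0.43), miR-6891-5p (390.4 and 304.0 units, 0.43), which lies in the class I gene HLA-B, and miR-6718-5p (304.6 and 273.1 units, 0.38). Taking the local background of the scanner instead turned miR-6834-5p to -0.33 and miR-6754-5p to -0.34. Like miR-6885-5p, miR-6891-5p (0.17 to 1.25) and miR-6718-5p (0.11 to 1.43) kept their direction under all settings.

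The member lowest in BNCT was miR-6813-5p, in RGS19, a regulator of G protein signalling. It read 278.4 units on the BNCT array and 295.3 on the control array, a difference of -0.55 (spot error 0.17), and turned to 0.22 with the scanner's local background. It was followed by miR-6806-5p (329.8 and 319.7 units, -0.38), miR-6716-5p (384.1 and 362.7, -0.35), miR-6775-5p (445.7 and 408.7, -0.33), in the amino acid transporter gene SLC7A5, and miR-6744-5p (331.3 and 314.3, -0.29). These 4 read higher in raw units on the BNCT array and were lower only relative to the other probes: without normalization they turned to 0.17, 0.21, 0.27 and 0.25. The sequences of miR-6885-5p and miR-6813-5p are shown because these were the only members past 0.5, with seeds in capitals.
miR-6885-5p (chr19:6389674-6389698, minus strand): aGGGGGGCacugcgcaagcaaagcc
miR-6813-5p (chr20:64076983-64077005, minus strand): cAGGGGCUgggguuucagguucu

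**Figure D4:**
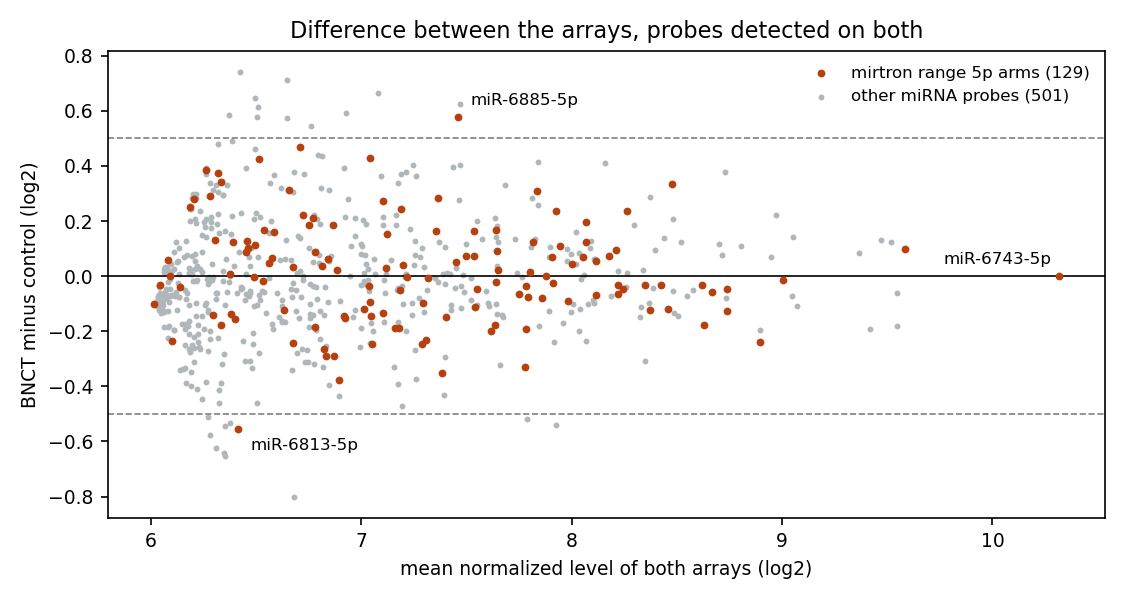
BNCT minus control difference (log2) against the mean normalized level (log2) of probes detected on both arrays, for the 129 5p arms of the range and 501 other miRNA probes, with dashed lines at 0.5 and -0.5. miR-6885-5p at 0.58 and miR-6813-5p at -0.55 are the only members past the dashed lines.

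With blank-based background and quantile normalization most of the brightest members differed by no more than about their spot error. miR-6787-5p differed by 0.10, miR-6785-5p by -0.02, miR-6794-5p by -0.05, miR-6803-5p by -0.13 and miR-6786-5p by -0.06, each with a spot error of 0.12 or 0.13. Among the 10 brightest on the BNCT array the differences farthest from 0 were those of miR-6729-5p, at 0.33 (spot error 0.13, but -0.12 with the local background), and miR-6717-5p, at -0.24 (spot error 0.12). These values depended on the background. With the local background of the scanner 3 of the brightest members were over 2-fold lower in BNCT, miR-6787-5p at -1.09, miR-6794-5p at -1.19 and miR-6786-5p at -1.23, while miR-6756-5p was at -0.85, miR-6743-5p at -0.53 and miR-6785-5p at -0.05. The 43 brightest of the 129 members had an SD of differences of 0.14, and the 43 dimmest one of 0.21.

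Detection on 1 array alone was found for 19 members on the BNCT array and for 2 on the control array, against 12.3% and 4.64% of all probes. All 21 were within 40 units of the limits. The clearest on the BNCT array were miR-6731-5p, in RUNX3 (304.5 units on the BNCT array, 268.0 on the control array, at least 1.32-fold higher in BNCT), miR-6876-5p (293.3 and 270.4, at least 1.21-fold) and miR-6875-5p (289.5 and 269.1, at least 1.18-fold). Those on the control array were miR-6840-5p (259.1 units on the BNCT array, 279.4 on the control array, at least 1.2-fold higher in control) and miR-6857-5p, in SMC1A, a cohesin subunit (265.9 and 277.8, at least 1.17-fold). For these bounds the level on the brighter array was divided by the probe's level on the other array, or by the lowest level detected there where that was higher. The bounds make no allowance for spot error. On the log2 scale that error was 0.2 for miR-6731-5p, miR-6876-5p and miR-6875-5p, 0.22 for miR-6840-5p and 0.21 for miR-6857-5p. Of the 19 on the BNCT array 12 had a bound above 1. No bound reached 2-fold with this processing, though those of miR-6731-5p, miR-6876-5p and miR-6875-5p came to 2.64, 2.17 and 2.02 with plain blank subtraction. With limits at 5 SD the bounds of these 3 were under 1, and with the local background 4 of the 5 named bounds were under 1, all but that of miR-6876-5p, so that no fold holds under those settings.

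Of 6 miRNAs known from glioma lines 1 was detected on the BNCT array (miR-24-3p, at 915.6 units) and 2 on the control array (miR-24-3p, at 620.0, and miR-23a-3p), while miR-21-5p was under both limits. Of 4 blood or serum miRNAs 2 were detected on the BNCT array, at 270.5 units or less, and 0 on the control array. Of 3 neuronal miRNAs 1 was detected on the BNCT array (miR-124-3p, at 269.7 units) and 0 on the control array, where the highest read 270.9 units. The limits were 267.5 units on the BNCT array and 272.0 on the control array, so these calls lay near the limit. Over all probes 36.2% and 28.6% were detected. The local background given by the scanner reached the spot median in 20 of the 148 detected members on the BNCT array and in 2 of 131 on the control array. Over all detected probes it did so in 77 of 953 and in 11 of 752. On the BNCT array it reached the spot median of miR-6794-5p (background 805.3 units, spot 736.4), miR-6786-5p (765.3 and 708.1), miR-6756-5p (808.5 and 691.0) and miR-6752-5p (677.1 and 674.4). It stayed below the spot median in the others of the 10 brightest there. The blank spots served as background here.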

How the data were processed

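The deposited scanner tables give, per the file headers, the median intensity of each spot at 635 nm, its local background median and a flag for each of 3 scanner gains. Per the labels, total RNA was labelled with Cy5. The scanning software was not given in the sources used here. The authors' processed values are linear intensities: each listed value equals the spot median minus 254.9 (BNCT) or 258.1 (control), divided by 1.54 or 1.25, which sets the median of the listed values to 25.0.

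Spots were read in R 4.3.3, corrected with limma 3.58.1 (nec on the blank spots, offset 50), put on the log2 scale and quantile-normalized over 2632 miRNA probes. The 2 flagged miRNA spots were left out and no member was flagged. The error of a spot joins the SD of the trimmed blanks (6.27 units in BNCT, 6.93 in control) and the spike control CV (8.03% and 4.7%), and covers neither cultures nor slides. Arrays, and so slides, cannot be told apart from groups, and their number limits the precision. The procedure was tested on simulated data in which 200 probes were changed by a known fold. The simulated arrays had the same baseline and no difference in brightness as a whole, unlike the real arrays. That test therefore covers neither the brighter BNCT array nor differences under 2-fold.

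Named members were the 10 brightest per array, the 5 largest differences each way, the 3 largest bounds per array, the 5 hairpins per array whose detected 3p spot exceeded the 5p spot by most, and members sharing a seed. The members and lists were chosen with earlier results of these data known. Sequences and gene positions are RefSeq's (GRCh38.p14), matched by miRNA name.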

Additional observations from a re-analysis of the deposited data

How the results depend on the processing

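Detection depended most on the limit. With a limit from spots without a probe 70 members were detected on the control array, 69 hairpins had a detected and brighter 5p spot there, and 2 3p partners remained detected on each array. With limits at 5 SD 5 3p partners remained on the BNCT array and 4 on the control array, where 19.9% and 13.5% of all probes were detected. The other detection counts of members and hairpins stayed within 1.5 times their values under the 5 SD limit, the limit from spots without a probe and the authors' listed values.

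The median difference of members moved to 0.54 without normalization, 0.73 with spike scaling and 0.47 in the authors' values. The first 2 of these settings leave the brighter BNCT array unscaled or scale it by the spike control spots. The authors' values are scaled to the same median of the listed values, over 957 listed probes on the BNCT array and 761 on the control array. Under the remaining settings the median difference stayed between -0.11 with median scaling and 0.13 with plain blank subtraction. Members 0.5 or more higher and lower in BNCT numbered 22 and 2 with plain subtraction (17.1% and 1.55%, against 18.1% and 7.46% of all probes). They numbered 9 and 2 with an offset of 16 (6.98% and 1.55%, against 6.98% and 5.71%) and 3 and 18 with the local background column (2.33% and 14%, against 3.65% and 8.89%). With spike scaling 104 members were higher (80.6%, against 60.3%) and 0 lower, and 78 were higher without normalization (60.5%, against 43.2%, or 272 of 630) and 0 lower. In the authors' values there were 61 and 3 (46.9% and 2.31%, against 41.4% and 8.03%). There were 0 and 1 with median scaling (0% and 0.775%, against 1.27% and 2.86% of all probes). With 75th percentile scaling there were 2 and 1 (1.55% and 0.775%, against 2.38% and 1.75%). There were 0 and 0 without background correction (0 of all 630 probes as well), and 1 and 0 with limits at 5 SD. Members 2-fold higher numbered 7 with plain subtraction, 1 without normalization, 10 with spike scaling and 14 in the authors' values. Members 2-fold lower numbered 1 with plain subtraction and 3 with the local background column. The share of all probes past 2-fold under these settings, or past 0.5 with limits at 5 SD, is not given here. Those counts therefore cannot be set beside the array as a whole.

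Of 189 differences of named members under other settings 24 turned the sign of a difference that had exceeded its spot error. Without normalization, with spike scaling and in the authors' values these were miR-6717-5p (0.40, 0.64 and 0.14), miR-6803-5p (0.57, 0.81 and 0.33), miR-6752-5p (0.49, 0.73 and 0.26), miR-6775-5p (0.27, 0.48 and 0.03) and miR-6744-5p (0.25, 0.41 and 0.14). Under the first 2 of these settings miR-6806-5p turned to 0.17 and 0.32, and miR-6716-5p to 0.21 and 0.41. With the local background column miR-6729-5p turned to -0.12, miR-6834-5p to -0.33 and miR-6754-5p to -0.34, while miR-6775-5p and miR-6813-5p both turned to 0.22. The cause was not tested. No paired analysis was possible because each group has 1 array.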
